A study of Mus musculus with 15 samples.

Results

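Retinal endothelial cells of adult mice without Norrin were compared with those of wild-type mice on 9 of the 15 microarrays of the series, 3 labelled Norrin KO and 6 labelled wild type. Arrays were assigned by their titles, and the features compared were the probe sets that carry exactly 1 gene symbol, 34958 of 45101, which stand for 18194 genes. A pool of 5 to 10 mice gave the RNA of an array. The labels give mixed gender and a C57Bl6/129 mixed background for all groups. Endothelial cells were purified from dissociated retinas with beads coated with anti-PECAM antibody, which binds the endothelial surface protein Pecam1. The labels name the genotype as Norrin KO, do not describe the allele and give no age beyond adult. The other 6 arrays, 3 from Fz4-/- mice (Fz4 KO) and 3 from Lrp5-/- mice (Lrp5 KO), entered the estimate of the spread and are used below where Norrin KO was set against the other mutants. P-values measure the spread between pools, not between mice.

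Norrin, encoded by the X-linked gene Ndp, is a secreted cystine-knot protein made in the retina mainly by Müller glia. It binds the receptor Frizzled4 (Fzd4) with the coreceptor Lrp5 and the tetraspanin Tspan12 on endothelial cells. The signal stabilizes beta-catenin, which acts with the DNA-binding factors of the TCF/LEF family on target genes. Loss of NDP in people causes Norrie disease, and mice without Norrin have a retina that lacks part of its capillary bed. The pathway is also known for keeping the blood-retina barrier, the tight and selectively transporting state of retinal capillaries. The question was which transcripts of adult retinal endothelium differ when the ligand is missing.

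All values are log2 signals, so a difference of 1 is a 2-fold change, and errors after ± are standard errors of the limma fit unless marked SD. Values of the Norrin KO arrays are given in the order 1, 2, 3, those of wild type as the lowest, the median and the highest of 6. The lower quartile of an array lay between 3.897 and 4.294. Signals around or below it are called near background here, and a fold against such a signal depends on that background. The mean signal of 15 pan-endothelial genes was 11.70 to 11.97 on Norrin KO and 11.69 to 11.87 on wild-type arrays. Other features moved with the group. The gap between the 3′ and the 5′ control signals of actin, which widens as RNA is shortened, was 2.92, 1.05 and 1.45 in Norrin KO and 0.56 to 1.04 on the other 12 arrays. Xist, the RNA of the inactive X chromosome, was low on all 3 Norrin KO arrays (4.98, 4.12 and 4.45), while the Y-linked Eif2s3y was 9.77, 10.32 and 10.28, so these pools read as male despite the label of mixed gender. Among wild-type arrays, numbers 4 and 5 had the same pattern (Xist 5.99 and 4.88, Eif2s3y 10.29 and 10.22). The mean of 19 macrophage and microglia markers was 9.54 to 10.16 in Norrin KO and 7.84 to 9.22 in wild type.

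**Figure D1:**
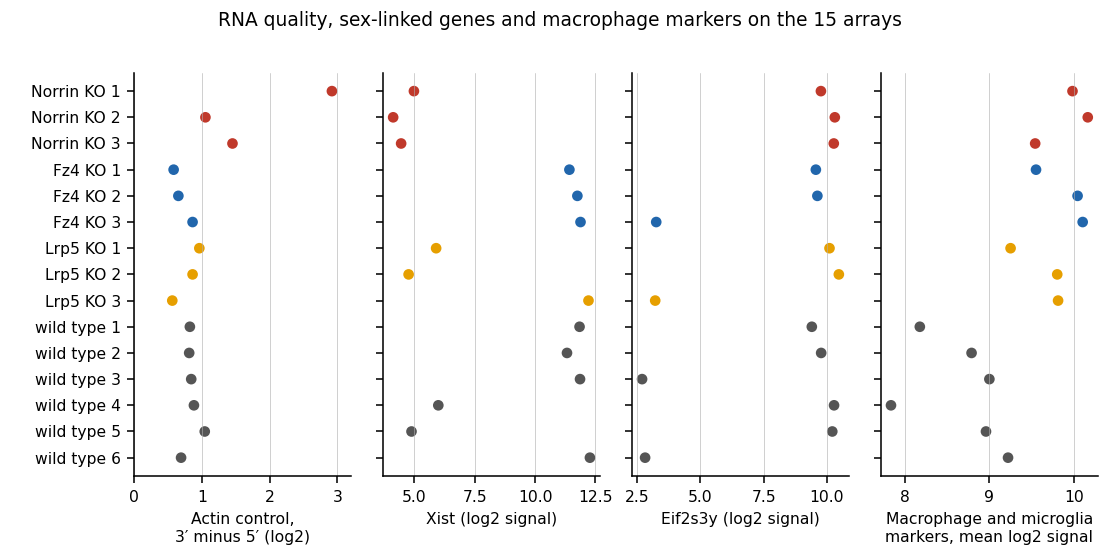
Points give 1 array each: the 3′ minus 5′ actin control signal, the signals of Xist and Eif2s3y, and the mean signal of the macrophage and microglia markers, all on the log2 scale. Norrin KO 1 stands apart at an actin gap of 2.92, Xist is low on all 3 Norrin KO arrays, Lrp5 KO 1 and 2 and wild type 4 and 5, and the macrophage mean of every Norrin KO array lies above that of every wild-type array.

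Of the 18194 genes, 3036 (16.7%) were higher and 1661 (9.13%) lower in Norrin KO at an adjusted p under 0.05, in limma with Benjamini-Hochberg adjustment, 25.8% in all. At least 2-fold, 1468 were higher (8.07%) and 632 lower (3.47%), and at least 8-fold 121 (0.665%) and 47 (0.258%). The median difference over all genes was 0.039, and over genes that passed the median size was 0.93. All 3 Norrin KO arrays lay outside the wild-type range for 4612 genes (25.3%), and 3867 genes (21.3%) met both criteria. In such bulk samples fewer cells of a type and less RNA per cell cannot be told apart. Without Norrin KO 1, the array with the wide actin gap, 2207 genes were higher and 1176 lower. Against wild type 4 and 5 alone, controls chosen after the data were seen, 1957 were higher and 861 lower.

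**Figure D2:**
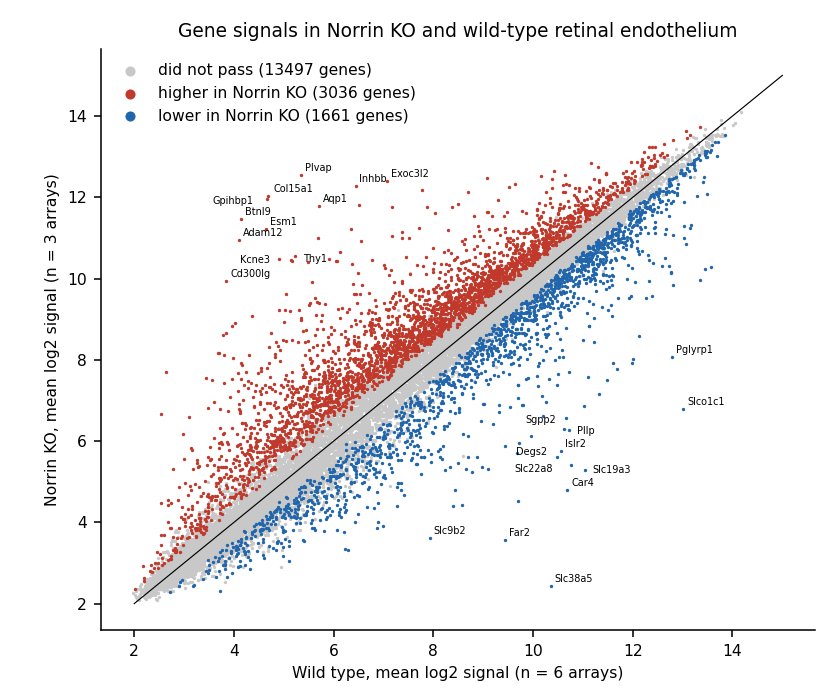
Each point is 1 of 18194 genes, with the mean log2 signal of 6 wild-type arrays on the x axis and of 3 Norrin KO arrays on the y axis; the line marks equal signal. Red points passed as higher (3036) and blue points as lower (1661) in Norrin KO. The 12 largest rises and falls are labelled, with Plvap, Col15a1 and Gpihbp1 far above the line and Slc38a5 and Slco1c1 far below it.

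The 12 largest falls included the transporters Slc38a5, Slco1c1, Slc19a3 and Slc22a8. Rises and falls were named only if they passed and the 3 Norrin KO arrays lay outside the range of the 6 wild-type arrays. The lack of overlap in the named genes is thus part of the rule and not a result. Promoters of 3 of the 12 genes are shown first, because they hold the short motifs that TCF/LEF factors, the DNA-binding partners of beta-catenin, recognize. The windows are the 250 bases before the annotated start in RefSeq on GRCm38.p6, 5′ to 3′ on the strand of the gene, with motif matches in capitals. Slc19a3 lies at chr1:83038449-83038698 on the minus strand, Islr2 at chr9:58204320-58204569 on the minus strand, and Slco1c1 at chr6:141524104-141524353 on the plus strand.
Slc19a3: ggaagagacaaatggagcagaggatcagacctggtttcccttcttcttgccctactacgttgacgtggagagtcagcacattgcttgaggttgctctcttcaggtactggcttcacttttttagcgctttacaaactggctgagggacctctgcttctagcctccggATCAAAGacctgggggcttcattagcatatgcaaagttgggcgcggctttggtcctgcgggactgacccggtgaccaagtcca
Islr2: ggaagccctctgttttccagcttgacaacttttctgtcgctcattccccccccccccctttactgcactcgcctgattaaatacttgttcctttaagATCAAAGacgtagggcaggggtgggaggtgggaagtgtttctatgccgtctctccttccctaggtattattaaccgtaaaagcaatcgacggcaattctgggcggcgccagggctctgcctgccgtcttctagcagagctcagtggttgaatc
Slco1c1: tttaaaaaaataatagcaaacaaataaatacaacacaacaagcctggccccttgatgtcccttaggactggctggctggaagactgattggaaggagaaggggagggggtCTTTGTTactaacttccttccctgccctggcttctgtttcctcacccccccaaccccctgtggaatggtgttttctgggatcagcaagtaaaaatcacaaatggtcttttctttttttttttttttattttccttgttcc
Slc19a3 and Islr2 each hold ATCAAAG, the reverse complement of CTTTGAT, 83 and 153 bases before the start, and the other 2 annotated starts of Islr2 have no match. Slco1c1 holds CTTTGTT, a form that SOX factors also bind, 140 bases before it. Both motifs were searched on both strands of 300-base windows that reach 50 bases past the start, and they differ at 1 letter and so never match the same bases. CTTTGAT was found in 500 of 14453 promoters of tested genes (3.46%), in 46 of 1335 of lower genes (3.45%) and in 76 of 2387 of higher genes (3.18%). CTTTGTT was found in 5.41% of all, 5.62% of lower and 5.61% of higher genes. Genes that moved thus carried the motifs in this window about as often as all genes. Among the 12 named falls 2 held the first and 1 the second. Of the 12 named rises, 7 had a promoter entry, and Btnl9 alone of these held a match.

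Slc38a5, an amino acid transporter with a preference for glutamine, was at 2.48, 2.65 and 2.21 in Norrin KO and at 10.22, 10.33 and 10.50 in wild type. It fell by 7.90 ± 0.24 (SE, n = 3 and 6), 240-fold (adjusted p = 3.5e-11), to a signal near background on all 3 arrays. Slco1c1, which carries thyroid hormone and organic anions across brain and retinal capillaries, was at 6.63, 6.62 and 7.17 against 12.93, 12.98 and 13.10. It fell by 6.20 ± 0.28, or 73.6-fold (adjusted p = 2.2e-09). Slc19a3, a thiamine transporter, was at 4.45, 5.65 and 5.79 against 10.82, 11.07 and 11.22 and fell by 5.74 ± 0.32 (53.5-fold, adjusted p = 1.4e-08). The organic anion transporter Slc22a8 was at 6.12, 5.05 and 5.09 against 10.38, 10.83 and 11.01 and fell by 5.35 ± 0.29 (40.7-fold, adjusted p = 1.0e-08). In each of these 4 transporters the lowest wild-type array lay far above the highest Norrin KO array.

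Car4, a carbonic anhydrase anchored to the surface of capillary endothelium, was at 5.02, 5.34 and 4.03 against 10.31, 10.62 and 11.05, a 59.5-fold fall (log2 −5.90 ± 0.34, adjusted p = 1.9e-08). Far2, which reduces fatty acyl-CoA to fatty alcohol, dropped to near background, at 3.65, 3.46 and 3.59 against a wild-type mean of 9.44 ± 0.37 (SD, n = 6), a fall on all 3 arrays (58.6-fold, adjusted p = 2.2e-10). Degs2, a sphingolipid desaturase and hydroxylase, was at 4.78, 5.81 and 6.25 against 10.05, 10.54 and 10.67 (29.1-fold lower, adjusted p = 9.7e-08). Sgpp2, a phosphatase of sphingosine-1-phosphate, varied most among the mutant arrays of these genes, at 5.24, 5.90 and 7.72 against 10.23, 10.69 and 10.82 (20.1-fold lower, adjusted p = 1.7e-05). As the rule for naming required, its highest Norrin KO array was below its lowest wild-type array. Pllp, a membrane proteolipid, was at 6.52, 6.00 and 6.29 against 10.59, 10.75 and 10.85 (22.0-fold lower, adjusted p = 3.1e-09).

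Islr2, a transmembrane protein with leucine-rich repeats, fell by 4.81 ± 0.22 (28.0-fold, adjusted p = 2.1e-09), from 9.88, 10.72 and 10.86 to 5.83, 5.97 and 5.49. Pglyrp1, a secreted protein that binds bacterial peptidoglycan, kept a clear signal, at 8.56, 7.95 and 7.69 against 12.51, 12.82 and 12.90 (26.4-fold lower, adjusted p = 8.2e-09). Slc9b2, an exchanger of sodium for protons, was at 3.90, 3.86 and 3.09 against 6.38, 8.13 and 8.69, with the widest wild-type range of the 12 (19.9-fold lower, adjusted p = 2.0e-06).

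The 12 largest rises included Plvap, Gpihbp1, Esm1 and Col15a1. Plvap, the protein of the diaphragms that close fenestrae and caveolae and that a barrier endothelium normally lacks, was at 12.65, 12.42 and 12.59 in Norrin KO and at 4.69, 5.34 and 6.01 in wild type. It rose 148-fold (log2 7.21 ± 0.24, adjusted p = 8.6e-11). Gpihbp1, which holds lipoprotein lipase on the luminal face of capillaries, was at 12.10, 12.07 and 11.73 against 4.27, 4.62 and 5.52 (157-fold, adjusted p = 3.5e-11). Btnl9, a butyrophilin-like protein of capillary endothelium, was at 11.66, 11.31 and 11.41 against 3.51, 4.12 and 4.62 (158-fold, adjusted p = 3.1e-11). Cd300lg, a mucin-like receptor of peripheral capillaries, was at 10.24, 9.86 and 9.72 against 3.21, 3.83 and 4.43 (68.0-fold, adjusted p = 3.1e-10). The water channel Aqp1 was at 11.40, 12.01 and 11.96 against 4.72, 5.84 and 6.47 (67.7-fold, adjusted p = 4.1e-09). All 5 had low signals on every wild-type array and high signals on each Norrin KO array.

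Col15a1, the alpha 1 chain of collagen XV, had the largest rise of all tested genes that met the rule for naming, at 12.21, 11.64 and 12.23 against 3.80, 4.62 and 5.36 (162-fold, log2 7.34 ± 0.27, adjusted p = 2.3e-10). Adam12, a membrane metalloproteinase, was at 10.96, 10.55 and 11.38 against 3.87, 4.10 and 4.34 (116-fold, adjusted p = 8.0e-12), with all 6 wild-type arrays near background. Esm1, or endocan, a proteoglycan made by endothelial tip cells, was at 11.12, 11.15 and 11.40 against 3.31, 4.81 and 5.46 (95.0-fold, adjusted p = 6.5e-09). Inhbb, the beta B subunit of activin and inhibin, was at 12.31, 12.36 and 12.19 against 5.68, 6.48 and 7.29 (57.5-fold, adjusted p = 7.3e-09). Kcne3, a regulatory subunit of potassium channels that is also known from tip cells, spread most among the mutant arrays, at 9.21, 10.72 and 11.50 against 4.28, 4.92 and 5.44 (47.5-fold, adjusted p = 4.4e-07). Norrin KO 1 was the lowest for this gene, though above every wild-type array by the rule for naming. Exoc3l2, an exocyst-like protein, was at 12.27, 12.37 and 12.58 against 6.27, 6.96 and 7.81 (40.4-fold, adjusted p = 6.5e-09). Thy1, a surface glycoprotein of neurons, T cells and activated endothelium, was at 10.84, 10.33 and 10.48 against 4.59, 5.27 and 5.65 (40.3-fold, adjusted p = 1.5e-10).

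**Figure D3:**
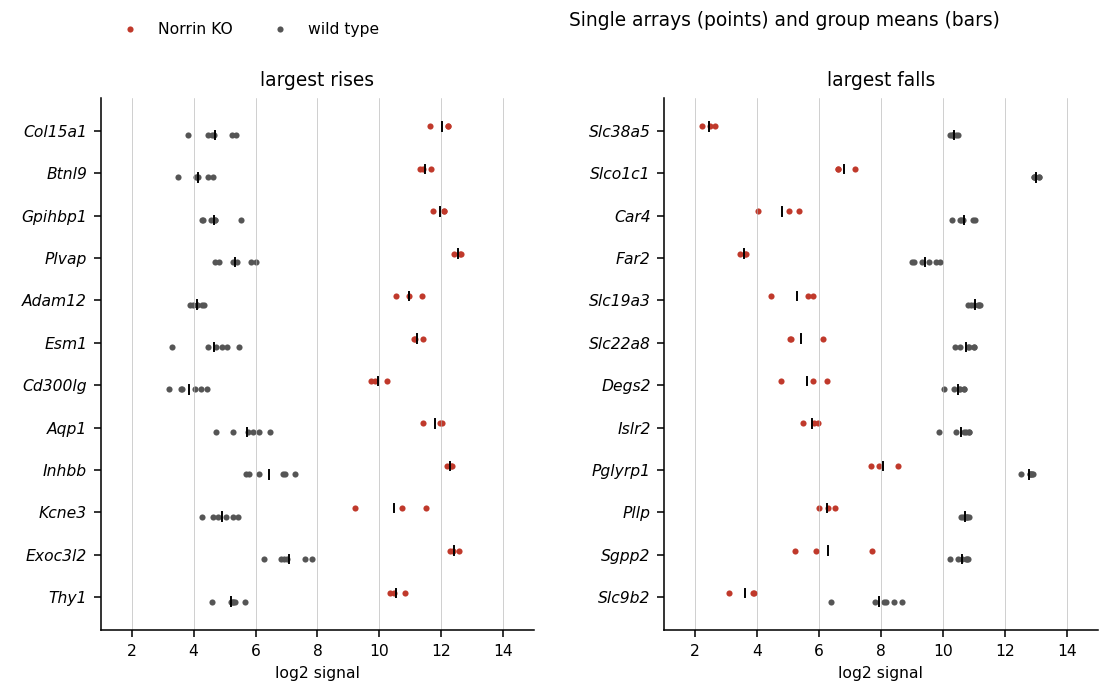
Points give the log2 signal of single arrays and bars the group means, for the 12 genes with the largest rises (left) and falls (right) whose 3 Norrin KO arrays lie outside the range of 6 wild-type arrays. In the rises the wild-type signals lie between 3.21 and 7.81 and the Norrin KO signals between 9.21 and 12.65; in the falls the order is turned.

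The ligand and its receptor complex differed little at the transcript level. Ndp was near background in both groups, at 4.17, 4.35 and 3.88 against 4.28, 4.38 and 4.81 (−0.31 ± 0.19, adjusted p = 0.250), so the array says nothing about the deletion. Fzd4 was at 11.50, 11.63 and 11.84 against 11.80, 12.17 and 12.27, a fall of 0.44 ± 0.15 that passed by a narrow margin (adjusted p = 0.0489). The groups overlapped, its other 2 probe sets were at 0.23 and 0.13 without passing, and the call ended without Norrin KO 1 (adjusted p = 0.177) and in most other settings. Lrp5 (0.27, adjusted p = 0.388), Lrp6 (−0.20, adjusted p = 0.266) and Tspan12 (0.15, adjusted p = 0.567) did not pass. Of 18 members of the intracellular pathway 1 was higher and 2 lower, 16.7% against 25.8% of all genes, with a median of −0.04. Ctnnb1, which encodes beta-catenin itself, was at 13.18, 13.12 and 13.22 against 13.18, 13.37 and 13.53 (−0.21, adjusted p = 0.163), though another probe set of it passed as lower (−0.93, adjusted p = 0.0292 over all probe sets). The TCF/LEF factor Lef1 fell from 12.44, 12.67 and 12.84 to 10.78, 11.47 and 11.43 (2.70-fold, adjusted p = 1.5e-05), and Pygo2, a coactivator, fell 1.58-fold. Tcf7l1, the family member best known as a repressor, rose 2.21-fold (9.60, 9.26 and 9.34 against 7.45, 8.29 and 8.92, adjusted p = 0.00295). Tcf7l2 did not pass (0.23, adjusted p = 0.340).

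Of 11 Wnt7 coreceptors and other Frizzled receptors 4 were lower, 1 was higher and 6 did not pass. In all 45.5% passed, against 25.8% of all genes, with a median of −0.35. Wnt7 signals act beside Norrin in maintaining the barrier of brain vessels. Reck, a membrane protein that recognizes Wnt7, was at 9.26, 9.23 and 9.17 against 11.29, 11.51 and 11.72 (4.88-fold lower, adjusted p = 2.1e-07). Its partner Adgra2, or Gpr124, was at 10.14, 9.67 and 10.17 against 10.93, 11.13 and 11.44 (2.26-fold lower, adjusted p = 9.1e-05). Neither gene overlapped between the groups. Fzd6 fell 2.00-fold and Fzd2 2.49-fold, the other 2 probe sets of Fzd2 being dim and not passing (−0.22 and −0.28). Fzd8 rose 2.19-fold, from 6.93, 7.78 and 8.06 to 9.17, 8.36 and 8.92 (adjusted p = 0.00246). With the actin gap or the macrophage mean as a covariate Fzd8 no longer passed, and on the mean of all probe sets of each gene the median of these receptors was 0.03.

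Beta-catenin targets and feedback genes divided. Of 16 measured, 7 were lower and 3 higher (62.5% passed, against 25.8% of all genes). The median was −0.10 against 0.039 over all genes. The promoters of 2 that fell are shown for their motif matches. Sp5 lies at chr2:70474673-70474922 on the plus strand, and the window of Tnfrsf19 is that of its second annotated start, chr14:61037988-61038237 on the minus strand.
Sp5: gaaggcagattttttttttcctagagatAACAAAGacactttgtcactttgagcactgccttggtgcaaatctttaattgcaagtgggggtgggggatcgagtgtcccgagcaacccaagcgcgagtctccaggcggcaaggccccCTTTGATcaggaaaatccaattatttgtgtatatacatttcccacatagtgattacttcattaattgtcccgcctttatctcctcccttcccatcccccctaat
Tnfrsf19: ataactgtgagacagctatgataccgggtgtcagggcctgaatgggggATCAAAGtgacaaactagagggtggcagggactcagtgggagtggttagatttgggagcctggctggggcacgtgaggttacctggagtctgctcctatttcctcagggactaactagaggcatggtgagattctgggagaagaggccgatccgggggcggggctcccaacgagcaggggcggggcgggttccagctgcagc
Sp5 holds CTTTGAT 104 and AACAAAG, the reverse complement of CTTTGTT, 222 bases before the start. Tnfrsf19 holds ATCAAAG 202 bases before this start and no match at its other one. Axin2 had none in the window, and Lef1, which also fell, had none at any of its annotated starts. Match positions were not listed for Apcdd1, Notum and Znrf3. Tnfrsf19, also called Troy, a receptor of the tumour necrosis factor family, was at 6.57, 8.16 and 7.97 against 10.71, 11.18 and 11.46 (11.6-fold lower, adjusted p = 1.4e-05). Norrin KO 1 was the lowest array for this gene. Axin2, a scaffold of the complex that destroys beta-catenin and a common readout of the pathway, was at 7.68, 8.08 and 8.44 against 10.11, 10.50 and 10.99 (5.50-fold lower, adjusted p = 2.8e-05). Apcdd1, a membrane inhibitor of Wnt signals, was at 10.05, 10.45 and 10.66 against 12.11, 12.33 and 12.75 (4.02-fold lower, adjusted p = 6.3e-06). Notum, which removes the lipid of Wnt proteins, was near background in Norrin KO (3.68, 3.59 and 3.45 against 5.10, 5.39 and 5.64, 3.51-fold lower). Znrf3, a ligase that removes Frizzled receptors, was 2.48-fold lower. Together with Lef1 these feedback genes did not overlap with wild type on any array. Sp5, a transcription factor, was at 6.74, 5.73 and 6.19 against 6.61, 7.04 and 7.46 (1.73-fold lower, adjusted p = 0.0308), overlapped, and no longer passed without Norrin KO 2 (adjusted p = 0.159), Norrin KO 3 (0.0825) or wild type 2 or 6 (0.0590 and 0.0506).

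The 3 targets that rose serve growth or dampen Wnt. Ccnd1, cyclin D1, had a mean of 11.81 ± 0.17 (SD, n = 3) against 9.92, 10.30 and 10.47 (2.97-fold, adjusted p = 1.3e-05). Myc was at 10.32, 10.66 and 10.55 against 8.35, 9.24 and 10.06 (2.46-fold, adjusted p = 0.00452), at 0.44 and not passing with the macrophage mean as a covariate. Dkk2, a secreted antagonist of Lrp5 and Lrp6, rose 2.51-fold. Nkd1 did not pass on its brightest probe set (0.11, adjusted p = 0.848), but 2 others of nearly the same signal passed as lower (−0.97 and −1.13, adjusted p = 0.00605 and 2.8e-04 over all probe sets), so it has no settled value. Bambi (0.20, adjusted p = 0.432) and Lgr5 (−0.23, adjusted p = 0.778) did not pass.

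**Figure D4:**
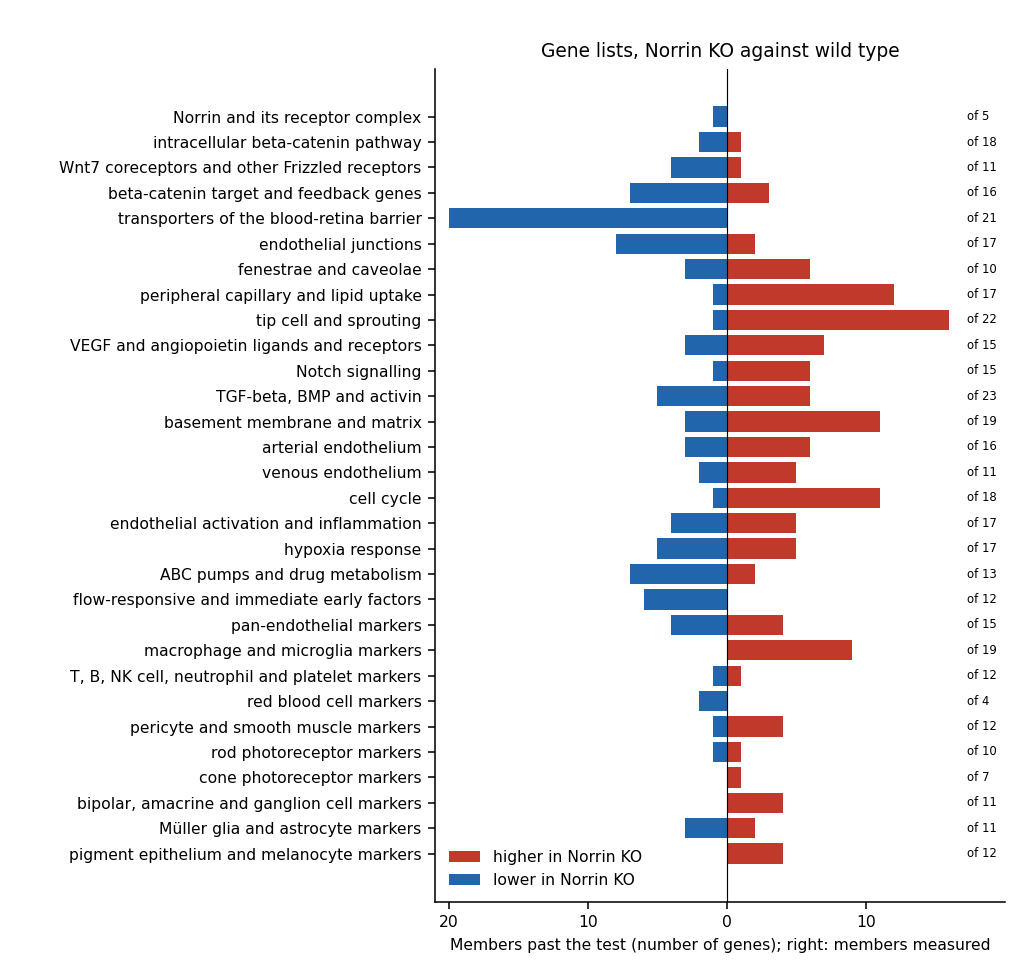
Bars count, for each gene list, the measured members that passed as higher (to the right) or lower (to the left) in Norrin KO against wild type, with the number measured written beside them. Transporters of the blood-retina barrier lie almost wholly on the lower side (20 of 21). Peripheral capillary (12 of 17) and tip cell genes (16 of 22) lie mostly on the higher side. Some genes are in more than 1 list, and members were chosen with earlier results of these data known.

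Transporters of the blood-retina barrier were lower as a group. Of 21 measured 20 were lower and none higher (95.2% passed, against 25.8% of all genes), with a median of −1.90. In 19 the groups did not overlap, as in 25.3% of all genes. Members of this and the other lists were chosen with earlier results of these data known, and some are genes named above for their size. The shares describe the lists and are not a test. Without Norrin KO 1 the count of lower transporters was 19, and the lowest count under any setting was 15, with the macrophage mean as a covariate. Besides the 4 transporters above, Mfsd2a, which takes up lysophospholipids with omega-3 fatty acids and holds transcytosis down, was at 7.96, 7.67 and 8.11 against 11.87, 11.98 and 12.17 (16.9-fold, adjusted p = 1.7e-08). Lrp8, a lipoprotein receptor, was at 7.80, 8.12 and 7.38 against 11.46, 11.71 and 11.84 (15.1-fold, adjusted p = 8.2e-09). Slc38a3, a second glutamine carrier, was 11.9-fold lower and Slc16a1, the lactate and ketone carrier MCT1, 10.4-fold (10.04, 10.26 and 9.63 against 13.16, 13.35 and 13.65, adjusted p = 5.5e-09). The organic anion carrier Slco1a4 fell 7.89-fold. Falls were smaller in 2 defining transporters. Slc2a1, the glucose transporter GLUT1, was at 12.91, 13.16 and 13.00 against 13.51, 13.66 and 13.97 (1.58-fold, adjusted p = 8.3e-04), and the efflux pump Abcb1a at 11.16, 11.33 and 11.24 against 13.08, 13.14 and 13.18 (3.72-fold, adjusted p = 9.8e-09). The heavy chain Slc3a2 fell 1.36-fold and its amino acid carrying partner Slc7a5 4.87-fold (9.61, 10.58 and 10.73 against 12.43, 12.56 and 12.88). Slc6a6, a taurine transporter, was 2.28-fold lower, with Norrin KO 1 at 10.46 far below the other 2 arrays (12.25 and 11.86), and its difference was −0.25 and not passing with the actin gap as a covariate. The arginine transporter Slc7a3 did not pass (−0.30, adjusted p = 0.556).

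Junction genes were mixed, with 8 of 17 lower and 2 higher (58.8% passed, against 25.8% of all genes, median −0.32). Lsr, or angulin-1, which marks the corners where 3 cells meet, was at 7.60, 7.37 and 7.52 against 11.36, 11.46 and 11.66 (15.8-fold lower, adjusted p = 9.1e-11), while its other probe set was dim and did not differ (−0.00). Ocln, occludin of tight junctions, was at 7.08, 8.44 and 8.57 against 11.62, 12.05 and 12.22 (15.7-fold lower, adjusted p = 2.9e-07). Cldn5, the main claudin of endothelial barriers, was at 11.07, 11.28 and 11.56 against 12.92, 13.05 and 13.15 (3.31-fold lower, adjusted p = 2.5e-07). None of these overlapped between groups, and Cldn5 still had a high signal without Norrin. The scaffold Tjp1, or ZO-1, fell 1.85-fold and the adhesion protein Cdh2 1.89-fold. Cdh5, the cadherin of all endothelium, did not pass (0.15, adjusted p = 0.445). Jam3 rose 2.47-fold (9.16, 9.28 and 9.68 against 7.83, 7.93 and 8.52, adjusted p = 1.1e-04), its other probe set at 0.98 not passing. Cldn12 rose 1.74-fold, and Cldn1 (0.29, adjusted p = 0.458) and Cldn3 (0.51, adjusted p = 0.0513) did not pass. With the macrophage mean as a covariate 5 members were lower and 1 higher, and without Norrin KO 1 the numbers were 9 and 1.

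Caveolar genes did not move as one with Plvap. Of 10 genes of fenestrae and caveolae 6 were higher and 3 lower (90.0% passed, against 25.8% of all genes, median 0.72). Dysf, a membrane repair protein, rose 3.28-fold (10.53, 11.20 and 11.70 against 9.17, 9.49 and 9.62) and Cavin3, an adapter of the caveolar coat, 3.39-fold (10.48, 10.04 and 10.26 against 8.18, 8.49 and 8.80, adjusted p = 1.4e-06). The membrane-shaping ATPases Ehd1, Ehd2 and Ehd4 rose between 1.58-fold and 1.95-fold. Another probe set of Ehd2 (0.02) and 1 of the 3 others of Ehd1 (0.45) did not pass. The coat proteins Cavin1, Cavin2 and Cav2 were lower by 0.65, 0.83 and 0.42, 1 of the 3 passing with the actin gap, the sex genes or the macrophage mean as covariates. Cav1, the structural protein of caveolae, did not pass (0.02, adjusted p = 0.910).

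Genes of peripheral capillaries and lipid uptake were the group with the largest median, 3.43. Of 17 measured 12 were higher and 1, Car4, lower (76.5% passed, against 25.8% of all genes). Beside those named above, Rbp7, a retinol-binding protein, was at 11.61, 11.05 and 10.33 against 5.06, 5.66 and 6.20 (39.8-fold, adjusted p = 9.7e-08). Meox2, a homeobox factor of heart and muscle capillaries, was at 9.36, 7.95 and 8.54 against 3.21, 3.54 and 5.14 (28.5-fold, adjusted p = 3.2e-06). Pparg, a fatty acid sensing nuclear receptor, was at 10.19, 8.79 and 8.69 against 4.23, 5.13 and 5.69 (18.3-fold, adjusted p = 7.7e-07). For both factors Norrin KO 1 was the highest array. Fabp4, a fatty acid binding protein, was at 12.33, 12.46 and 11.57 against 7.51, 8.90 and 9.12 (10.8-fold, adjusted p = 3.9e-06), and Lpl, lipoprotein lipase, rose 3.51-fold (10.46, 10.66 and 10.09 against 7.31, 8.88 and 9.12). Cd36, the fatty acid translocase, rose 2.44-fold with overlapping groups (8.55, 9.83 and 7.95 against 7.13, 7.38 and 8.30), and was at 0.76 without passing when Norrin KO 2 was left out (adjusted p = 0.0727). Tcf15, which acts with Meox2 in heart capillaries, did not pass (−0.31, adjusted p = 0.291), nor did Aqp7 (near background), Lipg or Vldlr. The count of higher genes was 10 or 11 with the actin gap, the sex genes or the macrophage mean as covariates and against wild type 4 and 5 alone.

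Tip cell and sprouting genes were higher in 16 of 22 cases and lower in 1 (77.3% passed, against 25.8% of all genes), with a median of 1.13. Apln, apelin, was at 8.62, 8.65 and 9.43 against 3.24, 3.89 and 5.48 (29.4-fold, adjusted p = 5.0e-07), while the values of its receptor Aplnr, 11.25, 11.67 and 12.24, fell partly within a wide wild-type range (7.56, 10.22 and 11.64, adjusted p = 0.0771). Ramp3, a subunit of adrenomedullin receptors, was at 10.57, 11.19 and 11.37 against 6.66, 7.03 and 7.82 (14.6-fold, adjusted p = 5.2e-08), whereas the ligand Adm was 1.58-fold lower (12.18, 11.69 and 11.89 against 12.49, 12.56 and 12.73). Aplnr itself was at 1.66, and at 1.75 on its other probe set, without passing. Angpt2, the antagonist of the Tie2 receptor, was at 11.31, 10.81 and 10.99 against 8.51, 8.78 and 9.20 (4.66-fold, adjusted p = 1.6e-07). Unc5b, a netrin receptor, rose 2.84-fold and the chemokine receptor Cxcr4 2.19-fold. Dll4, the Notch ligand of tip cells, rose 1.83-fold with a small overlap (9.80, 9.68 and 10.29 against 8.72, 8.97 and 9.69, adjusted p = 0.0127), and no longer passed without Norrin KO 3 (adjusted p = 0.0756). Cd34, Pdgfb, Plaur and Rgcc did not pass.

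Among ligands and receptors of the VEGF and angiopoietin families 7 of 15 were higher and 3 lower. In all 66.7% passed, against 25.8% of all genes, with a median of 0.22. The receptors Kdr and Flt1 moved in opposite directions: Kdr, the main signalling receptor of VEGF-A, rose 1.66-fold (mean 12.28 ± 0.26, SD, n = 3, against 11.14, 11.62 and 11.84, adjusted p = 0.00516), and Flt1, often a decoy, was 1.32-fold lower (12.44, 12.82 and 12.81 against 12.92, 13.08 and 13.27, adjusted p = 0.0212), though not on another probe set (−0.15). The coreceptors Nrp1 and Nrp2 rose 1.52-fold and 1.97-fold and the ligand Pgf 1.91-fold. Tek, the receptor Tie2, was 1.39-fold lower, and the ligand Vegfd was 2.65-fold lower (5.78, 6.03 and 6.61 against 6.47, 7.54 and 8.23). Vegfa passed narrowly at 1.50-fold (8.58, 8.46 and 7.79 against 7.41, 7.72 and 8.13, adjusted p = 0.0443), its other probe set at −0.02, and the call ended without Norrin KO 1 (adjusted p = 0.202) or Norrin KO 2 (0.149). Against wild type 4 and 5 alone 4 members were higher and none lower.

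Notch genes rose in 6 of 15 cases and fell in 1 (46.7% passed, against 25.8% of all genes), with a median of 0.32. The receptors Notch4 and Notch1 rose 2.00-fold and 1.60-fold (Notch1 12.69, 12.96 and 12.95 against 11.97, 12.18 and 12.38), though another probe set of Notch1 was at −0.05. The ligand Dll1 rose 1.89-fold and Mfng, which adds sugars to Notch, 1.83-fold. Of the effectors, Heyl rose 2.69-fold (9.55, 9.59 and 9.44 against 7.66, 8.09 and 8.54, adjusted p = 2.0e-04), Hes1 fell 1.90-fold (10.00, 10.40 and 10.15 against 10.99, 11.09 and 11.32, adjusted p = 0.00122), and Hey1 (0.06, adjusted p = 0.796) and Hey2 (−0.29, adjusted p = 0.305) did not pass.

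In the TGF-beta, BMP and activin families 6 of 23 members were higher, all of them ligands, 5 were lower and 12 did not pass. In all 47.8% passed, against 25.8% of all genes, with a median of 0.05. Besides Inhbb, Bmp6 was at 8.65, 8.29 and 8.50 against 4.70, 5.11 and 5.72 (9.97-fold, adjusted p = 1.2e-07). Bmp4 rose 2.63-fold, Tgfb3 2.61-fold and Bmp2 2.31-fold. Tgfb1 rose 4.31-fold on its brighter probe set (9.19, 8.93 and 8.85 against 6.11, 7.07 and 7.45), while the other was lower by 0.80, so its direction is uncertain. The ligands Tgfb2 (−0.45, adjusted p = 0.0936) and Inhba (0.58, adjusted p = 0.232) did not pass, though other probe sets of Tgfb2 passed as lower (−0.70 and −0.59). The receptors Acvrl1, or ALK1, and Tgfbr3 were 1.97-fold and 1.79-fold lower, while Tgfbr1 (0.06), Tgfbr2 (−0.31), Bmpr1a (0.41) and Bmpr2 (−0.00) did not pass on their brightest probe sets. The response genes Id1, Id2 and Id3, inhibitors of helix-loop-helix factors, were lower by 0.98, 1.14 and 0.47. In Id1 and Id2 the lowest value was that of Norrin KO 1 (11.14 against 12.43 and 11.53 in Id1, 9.83 against 11.90 and 10.74 in Id2). With the actin gap as a covariate 4 members of the families were higher and none lower, and without Norrin KO 1 the numbers were 6 and 3.

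Matrix genes rose in 11 of 19 cases and fell in 3 (73.7% passed, against 25.8% of all genes), with a median of 0.61. Col18a1, the source of endostatin, was at 11.87, 11.63 and 12.29 against 8.97, 9.32 and 9.52 (6.22-fold, adjusted p = 7.3e-08). Nid2, nidogen 2, was at 11.42, 11.42 and 12.08 against 8.69, 8.97 and 9.56 (5.82-fold) and Lamb1, a laminin beta chain, at 12.73, 12.18 and 12.63 against 9.68, 10.14 and 10.60 (5.17-fold, adjusted p = 1.2e-06). The perlecan gene Hspg2 rose 3.14-fold and the collagen IV genes Col4a1 and Col4a2 1.47-fold and 1.53-fold. The other way went 3 members. Spock2, a proteoglycan, was at 10.17, 10.34 and 10.32 against 13.45, 13.58 and 13.69 (9.83-fold lower, adjusted p = 9.9e-08), Fn1, fibronectin, at 11.60, 10.99 and 11.41 against 13.06, 13.18 and 13.25 (3.58-fold lower), and the laminin chain Lamb2 was 1.97-fold lower. On the mean of all probe sets of each gene 5 members were lower.

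Markers of arteries and veins each divided. Of 16 arterial genes 6 were higher and 3 lower (56.2% passed, against 25.8% of all genes, median 0.15). Gkn3, a marker of brain arterioles, was at 6.62, 7.38 and 7.44 against 10.82, 11.41 and 11.61 (18.0-fold lower, adjusted p = 2.6e-06), the vasoconstrictor Edn1 was 3.62-fold lower (10.57, 11.14 and 9.68 against 12.04, 12.36 and 12.43), and the kinase Bmx 2.70-fold lower. The gap junction genes Gja5 and Gja4 rose 2.71-fold and 1.83-fold, and Sox17, a factor of arterial identity, did not pass (−0.21, adjusted p = 0.267), while its other probe set was lower (−0.99, adjusted p = 4.1e-04 over all probe sets). Of 11 venous genes 5 were higher, 2 lower and 4 did not pass (63.6% passed, against 25.8% of all genes, median 0.83). Selp, P-selectin, was at 11.88, 12.01 and 11.41 against 5.49, 7.49 and 8.24 (24.0-fold, adjusted p = 1.6e-05). Lrg1, a secreted glycoprotein of venules, was at 10.51, 10.76 and 9.99 against 4.68, 6.15 and 7.48 (20.8-fold, adjusted p = 8.0e-06), and the chemokine receptor Ackr1 rose 3.99-fold. Nr2f2, the factor of venous identity, did not pass (−0.30, adjusted p = 0.186), a dim probe set of it being at 0.85 (adjusted p = 0.0123 over all probe sets).

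Leukocyte adhesion and cytokine genes rose in 5 of 17 cases and fell in 4 (52.9% passed, against 25.8% of all genes, median 0.25). Sele, E-selectin, was at 8.84, 10.01 and 10.04 against 5.85, 6.41 and 7.44 (8.60-fold, adjusted p = 5.4e-05) and Il6 at 12.04, 11.95 and 11.93 against 9.75, 11.03 and 11.84 (2.13-fold, adjusted p = 0.0207). Both selectins were higher, whereas the adhesion molecules Vcam1 (1.45-fold) and Icam2 (1.64-fold) were lower and Icam1 did not pass (−0.04, adjusted p = 0.896). Without Norrin KO 1, 4 members were higher and 2 lower, and Icam2 no longer passed (adjusted p = 0.132). With the macrophage mean as a covariate 3 members were higher and the median was −0.52, with Il6 at 0.08.

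Genes of the cell cycle were higher in 11 of 18 cases and lower in 1 (66.7% passed, against 25.8% of all genes, median 1.19). Birc5, survivin, was at 8.62, 8.45 and 8.75 against 5.14, 5.68 and 5.91 (7.89-fold, adjusted p = 2.5e-07). The mitotic kinase Cdk1 was at 8.28, 8.79 and 9.32 against 5.30, 6.00 and 6.44 (7.28-fold, adjusted p = 9.5e-06), and the cyclins Ccnb2 and Ccna2 rose 6.70-fold and 6.40-fold. Another probe set of Ccna2, of nearly the same signal, was at 0.70 and did not pass (adjusted p = 0.0523 over all probe sets). The proliferation marker Mki67 was at 8.57, 8.09 and 8.45 against 6.18, 6.80 and 7.55 (2.91-fold, adjusted p = 0.00137). Top2a, a topoisomerase of dividing cells, was lower by 1.58 on its brightest probe set and higher by 2.10 on another, so it has no settled direction. The replication factor Pcna (0.23, adjusted p = 0.292) and Mcm2 (0.23, adjusted p = 0.458) did not pass, but an equally bright probe set of Mcm2 was higher by 1.43 (adjusted p = 0.00594 over all probe sets). With the actin gap as a covariate 6 members were higher and 1 lower.

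Macrophage and microglia markers were higher in 9 of 19 cases and lower in none (47.4% passed, against 25.8% of all genes, median 0.90). Mrc1, the mannose receptor of tissue macrophages, was at 10.20, 11.07 and 9.99 against 3.74, 6.51 and 7.42 (20.4-fold, adjusted p = 1.8e-04). Cd163, a haemoglobin scavenger receptor, was at 9.24, 9.92 and 9.01 against 4.60, 5.61 and 6.94 (12.9-fold, adjusted p = 1.7e-05). Lyve1, a hyaluronan receptor of lymphatic endothelium and of macrophages along vessels, rose 6.52-fold, Pf4 5.54-fold and the class II gene H2-Ab1 5.15-fold. The microglial genes Cx3cr1 (8.14, 8.55 and 8.33 against 8.34, 9.20 and 9.71, adjusted p = 0.108), Itgam (−0.51, adjusted p = 0.0594) and Ctss (−0.02, adjusted p = 0.951) did not pass. Without Norrin KO 1 the count was 6, and with the actin gap as a covariate 4. With the macrophage mean as a covariate for all genes 956 were higher and 836 lower in Norrin KO. The 12 rises and 12 falls named above kept their direction and passed in all 741 values computed for them under other settings, that one included. They were picked as the largest changes that passed on these same arrays, so this is not a separate test of them.

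Markers of further cell types were mixed, and those of retinal glia, pigment cells and inner neurons are given under other observations. Of 12 pericyte and smooth muscle genes 4 were higher and 1 lower (41.7% passed, against 25.8% of all genes, median 0.01). Anpep was higher 4.21-fold, and the pericyte genes Pdgfrb (−0.02) and Rgs5 (−0.15) did not pass. Norrin KO 1 to 3 had rod marker means of 5.36 to 6.65 against 5.43 to 6.20 in wild type, with 1 of 10 higher and 1 lower, and 1 of 7 cone genes was higher. Of markers of T, B and NK cells, neutrophils and platelets 1 of 12 was higher and 1 lower, and 2 of 4 red cell markers were lower, Hbb-b2 by 1.16 (9.81, 10.39 and 9.80 against 10.86, 11.21 and 11.41). For the rod and cone lists and the list of 12 blood cell markers, the share that passed was below the 25.8% of all genes. It was above that share for the red cell markers, of which only 4 were measured. The part of these markers in the results above was not tested, beyond the fits with the macrophage and the rod mean as covariates.

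Norrin KO was then set against the mean of the other mutants, which lack the receptor or the coreceptor of the same ligand, to show where the ligand mutant differs. In the same limma fit 1499 genes (8.24%) were higher and 501 (2.75%) lower in Norrin KO, and for 1589 (8.73%) the 3 Norrin KO arrays also lay outside the range of the 6 other mutant arrays. Pairwise, 423 genes (2.32%) differed from Fz4 KO, 260 higher (1.43%) and 163 lower (0.896%), and 2171 (11.9%) from Lrp5 KO, 1729 higher (9.50%) and 442 lower (2.43%), and 338 differed from both in the same direction. The count moved with single arrays and with the actin gap: 661 genes passed without Norrin KO 1, 1086 without Norrin KO 3, 1271 without Fz4 KO 2, 1321 without Lrp5 KO 3, and 64 with the actin gap as a covariate. Of the 24 genes named against wild type, 3 also differed from the other mutants, about the share found among all genes. Adam12 (1.01, adjusted p = 0.00400) and Thy1 (1.60, adjusted p = 9.3e-04) were higher, and Slc38a5 was lower by 0.89 (adjusted p = 0.0319), a difference between signals near background. Adam12 was at −0.08 on its other probe set and did not pass against Fz4 KO alone (0.46, adjusted p = 0.228), nor did Slc38a5 (−0.48, adjusted p = 0.396); Thy1 passed against each mutant.

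The gene furthest above the other mutants was Ifi44l, an interferon-induced gene, at 6.03, 8.22 and 8.87 in Norrin KO and at 2.13 to 2.59 on the 6 other mutant arrays (5.38 ± 0.45, adjusted p = 7.0e-05). Wild type was also near background (2.34, 2.53 and 3.48), and of its other 2 probe sets 1 was at 4.09 and 1 at 0.70 against wild type. Gdpd3, a lysophospholipase of the glycerophosphodiesterase family, was at 11.15, 12.55 and 11.56 against 6.89 to 9.38 (3.86 ± 0.56, adjusted p = 0.00210). Slc10a6, a transporter of sulphated steroids, was at 8.52, 8.53 and 7.93 against 4.81 to 6.79 (2.71 ± 0.29, adjusted p = 5.6e-04). These 3 genes were higher than in wild type too, 33.4-fold, 14.7-fold and 10.9-fold, and differed from Fz4 KO and Lrp5 KO each. Vsig4, a complement receptor of macrophages, was at 7.35, 6.41 and 6.26 against 2.52 to 6.22 (2.62 ± 0.26, adjusted p = 2.9e-04), and passed against Lrp5 KO (4.03, adjusted p = 3.7e-05) but not against Fz4 KO (1.21, adjusted p = 0.0524). The macrophage marker mean was 9.54 to 10.16 in Norrin KO, 9.55 to 10.10 in Fz4 KO and 9.25 to 9.81 in Lrp5 KO, and its part in this result was not tested beyond the fit with that mean as a covariate, in which Vsig4 still passed.

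Timp4, an inhibitor of metalloproteinases, was at 8.88, 8.42 and 8.14 against 3.91 to 7.57 (2.53, adjusted p = 0.00326), and Scrg1 at 7.09, 7.69 and 6.46 against 3.26 to 6.33 (2.51, adjusted p = 0.00326). Neither passed against Fz4 KO alone (adjusted p = 0.143 and 0.0871). Ccbe1, a secreted protein of lymphatic growth, was at 6.96, 4.26 and 6.23 against 2.92 to 3.74 (2.64, adjusted p = 0.00264), its other 3 probe sets lying between −0.42 and 0.54 against wild type. Fbp1, an enzyme of gluconeogenesis, was at 6.36, 3.90 and 5.68 against 2.54 to 3.30 (2.56, adjusted p = 0.00210). In both, Norrin KO 2 was far below the other 2 arrays and close to background.

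Among the 8 genes lower than in the other mutants were 3 secreted factors whose signal in Norrin KO did not pass against wild type. Lif, a cytokine of the interleukin-6 family, was at 5.64, 6.49 and 4.92 against 7.38 to 9.78 in the other mutants (−2.48 ± 0.46, adjusted p = 0.00597) and against 5.34, 6.01 and 7.18 in wild type (−0.32, adjusted p = 0.641). Csf3, granulocyte colony-stimulating factor, was at 6.50, 6.53 and 6.76 against 7.90 to 9.56 (−2.42 ± 0.47, adjusted p = 0.00714) and 5.58, 7.49 and 8.63 in wild type. Plau, urokinase, was at 5.09, 6.55 and 5.81 against 7.66 to 8.55 (−2.24 ± 0.37, adjusted p = 0.00342) and 6.07, 6.42 and 7.63 in wild type. Set against the same wild-type arrays, the other mutants lay above wild type in these genes: Lif by 2.81 in Fz4 KO and 1.50 in Lrp5 KO, Csf3 by 1.29 and 2.11, and Plau by 1.58 and 1.22. Tmem87a was at 7.95, 7.79 and 7.98 against 8.06 to 10.99 (−2.22, adjusted p = 0.00488) and likewise did not pass against wild type (0.60, adjusted p = 0.287).

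The other 4 were lower than the mean of the other mutants and than wild type, but against Fz4 KO alone Dppa2 (adjusted p = 0.126), Vstm2a (0.0858) and Scn3a (0.0914) did not pass. Isl1, a homeobox factor of retinal neurons, was at 4.67, 3.35 and 4.03 against 5.28 to 7.31 in the other mutants and 5.40, 6.43 and 7.25 in wild type (−2.33 ± 0.37 and −2.40, adjusted p = 0.00302 and 2.9e-04), its other probe set at −0.29. The neuronal sodium channel gene Scn3a was at 4.76, 5.91 and 5.65 against 6.52 to 8.57 (−1.84, adjusted p = 0.00810), its dim second probe set at 0.18 against wild type. Vstm2a was at 5.86, 5.81 and 4.94 against 6.20 to 8.13 (−1.88, adjusted p = 0.00692). Dppa2, known from pluripotent cells, was at 4.03, 3.50 and 4.49 against 4.54 to 7.70 (−2.19, adjusted p = 0.0143), with a second probe set at 0.00 against wild type. Without Norrin KO 1 the calls of Dppa2 (adjusted p = 0.0605) and Scn3a (0.0561) ended. With the actin gap as a covariate the calls of 11 of these 16 genes ended, and those of Ifi44l, Gdpd3, Slc10a6, Vsig4 and Isl1 held.

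**Figure D5:**
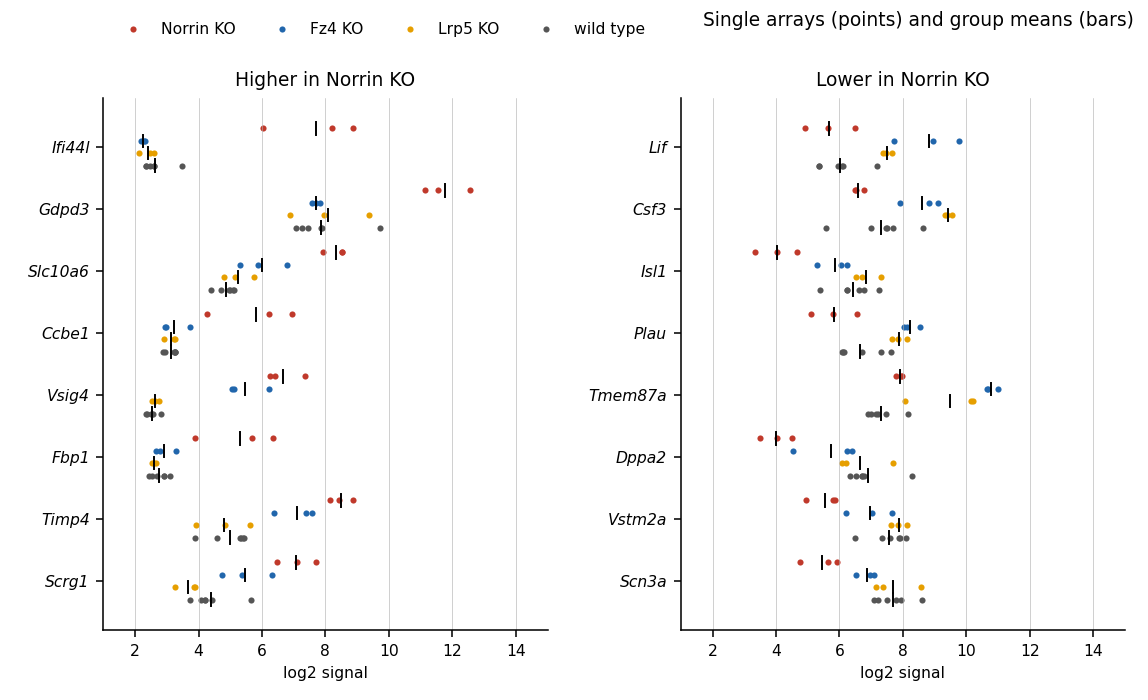
Points give the log2 signal of single arrays of the 4 groups and bars the group means, for the 8 genes highest (left) and lowest (right) in Norrin KO against the mean of Fz4 KO and Lrp5 KO. Norrin KO arrays lie outside the range of the other mutants in every gene, which was a condition for naming. Lif, Csf3 and Plau in Norrin KO lie near wild type (grey) instead.

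Of 21 transporters of the barrier 5 were lower and 1 higher than in the other mutants, where 2.75% of all genes were lower and 8.24% higher (median −0.13, against 0.063 for all genes). Slc16a1 was lower by 1.13 (adjusted p = 0.00214), Slc38a3 by 0.94, Slco1a4 by 0.65 and Abcb1a by 0.41, and Abcc4 was higher by 0.51. The dimmer probe sets of Slc16a1 and Slc38a3 were each at −0.28 and did not pass, while that of Abcb1a passed (−0.45). Of 16 beta-catenin targets 1 was higher, Nkd1 (1.66, adjusted p = 0.00954), an inhibitor of Dishevelled, and 1 lower, Myc (−1.01, adjusted p = 0.0403). The other probe sets of Nkd1 were at 0.84, −0.23 and 0.68 in this comparison, of which the first passed. Axin2 (0.27, adjusted p = 0.590), Apcdd1 (0.18, adjusted p = 0.617) and Lef1 (−0.45, adjusted p = 0.0808) did not pass. The response genes of BMP Id1 (−1.06, adjusted p = 0.00881), Id3 (−0.61, adjusted p = 0.00752) and Id2 (−1.17, adjusted p = 0.0297) were lower. Other probe sets of Id2 were at −0.46 and −0.10 and did not pass. Of peripheral capillary genes Pparg (1.79, adjusted p = 0.00669) and Meox2 (1.69, adjusted p = 0.0309) were higher beside Timp4. No tip cell gene of 22 passed.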

How the data were processed

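The submitters' processing notes name RMA for the log2 signals that the authors deposited, which were used unchanged. Neither its settings nor array batches are stated. Probe sets were named from the platform's gene table, and the brightest of a gene (highest mean over 15 arrays) stood for it. limma 3.58.1 (R 4.3.3; lmFit, eBayes) fitted 4 group means to all 15 arrays, with Benjamini-Hochberg adjustment over 18194 genes for each of 4 contrasts. On data simulated for Norrin KO against wild type with 18194 genes, 61% of 100 genes changed 2-fold and 94% of 100 changed 4-fold were recovered, with 6 false calls. The simulation had independent noise, no other changed genes and no array-wide differences such as the actin gap. Its false calls thus do not give the error rate of the real arrays. Named genes are the 12 largest rises and falls (8 each way against the other mutants) that passed with groups not overlapping, sex-linked genes apart, plus members of 31 gene lists, of which some share genes. The members and lists were chosen with earlier results of these data known. Replicate numbers did not pair the arrays. Promoters are RefSeq windows (GRCm38.p6). The number of arrays limits the precision.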

Additional observations from a re-analysis of the deposited data

Results flagged for a closer look

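Of 48 genes tested, single wild-type arrays stood far from the other 5 in 7, where chance alone sets about 1 in 20 groups apart. Wild type 2 was high in Gpihbp1 (5.52, next 4.70), Ifi44l (3.48, next 2.60) and Gdpd3 (9.72, next 7.88), wild type 4 in Dppa2 (8.29, next 6.77) and Ndp (4.81, next 4.47), and wild type 1 in Scrg1 (5.66, next 4.41). Wild type 5 was low in Pglyrp1 (12.51, next 12.80). For Gpihbp1, Ifi44l, Gdpd3 and Scrg1 the high array lay on the side of Norrin KO without reaching it.

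Of the 24 genes with the largest changes against wild type, 3 also differed in size from the change in the other mutants: Adam12 (1.01 higher in Norrin KO, adjusted p = 0.00400 in limma), Thy1 (1.60 higher, adjusted p = 9.3e-04) and Slc38a5 (−0.89, adjusted p = 0.0319). Of all genes 8.24% were higher and 2.75% lower in this contrast. The count of 3 is thus about what the share of all genes gives and does not set the 24 genes apart. The other probe set of Adam12 was at −0.08, and against Fz4 KO alone Adam12 (adjusted p = 0.228) and Slc38a5 (0.396) did not pass.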

How the results depend on the processing

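Against wild type the total, higher and lower counts moved by over 1.5 times at 2-fold or more (2100, 1468 and 632), with the replicate number as a block (2781, 1789 and 992), with covariates for the actin gap (2217, 1469 and 748), for Xist and Eif2s3y (2739, 1919 and 820) or for the macrophage mean (1792, 956 and 836), against wild type 1 to 3 (3054, 1952 and 1102), and against wild type 4 and 5 (2818, 1957 and 861), the last chosen after seeing the data. With 1 array left out they ran from 3383 to 4980, 2207 to 3149 and 1176 to 1831. Same-numbered arrays did not deviate together (r = −0.0353, 0.0318 and −0.151), and the block left 1459 genes against the other mutants. That contrast gave 599, 484 and 115 at 2-fold or more, 1128, 865 and 263 in a fit of the groups compared, 64, 49 and 15 with the gap, 277, 227 and 50 with the sex genes, 599, 418 and 181 without wild type 4, Lrp5 KO 1 and Lrp5 KO 3, and 661 to 2448, 501 to 1816 and 160 to 633 with 1 array left out. The causes were not tested.

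Signs turned on the mean of all probe sets for Csnk1a1 (−0.38) and Top2a (0.20), with the macrophage covariate for Tgfbr1 (−0.71), Ccl2 (−1.52), Hk2 (−1.45), Aif1 (−0.87), Tyrobp (−0.69), C1qa (−0.89), C1qb (−0.19), C1qc (−0.71), Fcer1g (−0.33) and H2-Aa (−0.29), with the rod covariate for Gngt1 (−0.60), and without probe sets ending in _x_at or _s_at for Dppa2 against the other mutants (0.04). Aif1, Tyrobp, C1qa, C1qb, C1qc, Fcer1g and H2-Aa are themselves part of the macrophage mean, and Gngt1 is part of the rod mean. Their turns therefore follow in part from adjusting a gene for a mean that contains it. Of 11622 values of list members 10851 kept the side of the threshold, and also the direction where the gene had passed. Sign changes of genes that passed in neither fit were not counted as turned. The call was lost in 612 values and gained in 146. Few arrays and dim signals in 1 group limit the folds.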

Other observations

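Genes that respond to blood flow and early response genes were lower in 6 of 12 cases and higher in none (median −0.36, where 9.13% of all genes were lower). Klf2, a transcription factor induced by laminar flow, was at 11.01, 10.31 and 11.13 against 11.62, 11.79 and 12.15 in wild type (2.07-fold lower, adjusted p = 9.0e-04 in limma), and Nos3, endothelial nitric oxide synthase, at 10.33, 9.55 and 9.76 against 10.84, 10.87 and 11.03 (2.03-fold lower, adjusted p = 4.0e-04). Klf4, Thbd, Ier2 and Fos also passed as lower, by 0.30 to 0.78, and Jun, Egr1 and Dusp1 did not pass, though another probe set of Jun did (−0.56). The count was 2 with the actin gap as a covariate and 10 with trended, robust moderation. Of 13 genes of efflux and drug metabolism 7 were lower and 2 higher (69.2% passed, against 25.8% of all genes, median −0.50). The glutathione transferase Gsta4 was at 9.99, 9.50 and 9.05 against 11.91, 12.25 and 12.53 (6.78-fold lower, adjusted p = 1.0e-06) and monoamine oxidase A, Maoa, at 9.11, 8.91 and 9.02 against 10.98, 11.24 and 11.36 (4.63-fold lower, adjusted p = 1.3e-07).

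Genes of the hypoxia response divided, 5 higher and 5 lower of 17 (58.8% passed, against 25.8% of all genes, median 0.02). Ankrd37 was at 9.06, 8.70 and 8.70 against 10.80, 11.12 and 11.45 (4.96-fold lower, adjusted p = 2.5e-07), and Egln3, an oxygen-sensing hydroxylase, at 9.83, 8.60 and 8.71 against 6.82, 7.04 and 7.46 (3.88-fold higher, adjusted p = 4.5e-05). The glycolytic genes Aldoa, Pgk1 and Ldha rose by 0.43 to 0.46 (Aldoa did not pass on 3 other probe sets), and without Norrin KO 1 only 1 member was higher. Markers of retinal glia divided as well, 2 higher and 3 lower of 11 (45.5% passed, median 0.03): Gfap, an astrocyte filament, rose 3.08-fold (9.33, 10.04 and 9.91 against a mean of 8.13 ± 0.46, SD, n = 6, adjusted p = 0.00288), and Rlbp1, of Müller glia, was 3.49-fold lower (9.03, 8.81 and 8.17 against 10.47 ± 0.41, SD, n = 6, adjusted p = 0.00218). Of 12 pigment cell markers 4 were higher (33.3% passed, near the 25.8% of all genes, median 0.32), with Dct at 8.87, 7.28 and 7.50 against 4.47, 5.45 and 6.00 (5.72-fold, adjusted p = 9.5e-04) and Rpe65 (0.21, adjusted p = 0.557) and Tyr (−1.56, adjusted p = 0.106) not passing. Of 11 markers of inner retinal neurons 4 were higher (36.4% passed, against 25.8% of all genes), Thy1, Trpm1, Rbpms (on 1 of its probe sets) and Slc6a9, with Pax6 (0.58, adjusted p = 0.388, a dim probe set passing at 0.44) and Pou4f1 (−1.42, adjusted p = 0.129) not passing. The part of these cell types in other results was not tested.

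Of 15 pan-endothelial markers 4 were higher and 4 lower (53.3% passed, against 25.8% of all genes, median 0.07). None passed against wild type 4 and 5. On the X chromosome 106 of 618 tested genes were higher and 50 lower, shares close to the 16.7% and 9.13% of all genes. Of the sex-linked genes Xist was lower by 5.18 (adjusted p = 0.0438) and the Y genes Eif2s3y (2.59, adjusted p = 0.401), Kdm5d (2.23, adjusted p = 0.133) and Uty (1.24, adjusted p = 0.368) did not pass. Among 10092 probe sets with no symbol or several, 420 were higher and 690 lower, so falls outnumbered rises there. Of the 18194 genes, 3036 were higher and 1661 lower.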
